A study of Mus musculus with 8 samples.

Results

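Glutamate, GABA and glycine act on midbrain dopaminergic neurons through ligand-gated ion channels, and the genes of those channels were compared between region and genotype, in WT and KO neurons of SNc and VTA. The members were all probesets whose single gene symbol began with Gria, Grin, Grik or Grid and a digit, with Gabra, Gabrb, Gabrd, Gabre, Gabrg, Gabrp, Gabrq or Gabrr, or with Glra or Glrb. This gave 40 probesets of 38 genes, out of 19938 genes with a single symbol in the table. Of these genes, 17 carried a glutamate receptor symbol, 16 a GABA-A receptor symbol and 5 a glycine receptor symbol. Grid2ip, which encodes delphilin, a scaffold that binds a delta receptor, is the only member that is not a receptor subunit, so 37 subunit genes were measured. Gabrb2 was measured by 3 probesets.

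The arrays measured RNA of live EGFP-positive cells sorted by flow cytometry from the substantia nigra pars compacta (SNc) or the ventral tegmental area (VTA) of newborn mice aged P1-P4, of strain C57Bl/6 by the labels and kept on a C57Bl/6J background by the methods of the study. WT stands for Pitx3+/+;Th-EGFP+/- and KO for Pitx3-/-;Th-EGFP+/-, so every group, the controls included, was heterozygous for the transgene that labels cells expressing tyrosine hydroxylase. Each of the 4 groups had 2 arrays, and a sample was a pool of cells sorted and stored at different times. Pitx3 is a homeodomain transcription factor of dopaminergic neurons, and by the design of the study the SNc of KO pups has already lost its Pitx3-positive neurons at birth, so that SNc KO holds the neurons that remain. The methods describe duplicate RNA purifications and hybridizations of 1 cell preparation per group, and no source says that the 2 arrays of a group came from separate animals, so the p-values measure the spread between these duplicates only, which may be technical. Fewer cells of a type and less RNA per cell cannot be told apart in pooled cells, and the number of arrays limits the precision of every value.

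All values are the deposited log2 signals. The median signal over all probesets was 6.11 to 6.13 on the 4 SNc arrays and 6.17 to 6.24 on the 4 VTA arrays, and the VTA KO arrays differed most from each other (SD between arrays 0.38, against 0.24 to 0.25 in the other groups). The Pitx3 probeset read 7.63 to 7.72 on SNc WT, 7.87 to 7.94 on SNc KO, 7.84 to 8.10 on VTA WT and 7.92 to 8.08 on VTA KO arrays, so it was not lower in the KO groups and did not check the genotype labels. All 8 dopaminergic markers examined, Th among them, were above the signal minimum of 60 in every group.

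AMPA, NMDA, kainate and delta receptors are tetrameric glutamate receptors, of which AMPA receptors carry the fast excitatory current and NMDA receptors add a slower, calcium-permeable current that depends on the subunit mixture. GABA-A and glycine receptors are pentameric chloride channels, whose alpha, beta, gamma and accessory subunits set GABA sensitivity, kinetics and drug binding. In midbrain dopaminergic neurons the balance of NMDA and GABA-A input is known to shape burst firing, and in the newborn brain many subunits are still being exchanged for adult ones.

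Of the 40 probesets, 29 reached a mean linear signal of 60 (5.91 on the log2 scale), the minimum used by the study, in each SNc group, 30 did so in VTA WT and 31 in VTA KO. A probeset was tested if it reached this minimum in at least 1 group, which left 32 probesets of 30 genes. The 8 that stayed under it in every group were Grid2ip, the cerebellar granule cell subunit gene Gabra6, the extrasynaptic subunit gene Gabrd, Gabrp, Gabrr2, Gabrr3, Glra1, whose subunit forms the adult glycine receptor, and Glra4. Their highest group means ran from 4.36 for Glra1 to 5.68 for Gabrr2, and the lowest tested member was Grin2c at 5.99. Gabre, Grin2c, Glra3 and Gabrr1 did not reach the minimum in every group and so were tested because of the groups in which they were higher.

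Differences were tested with limma over all 22112 tested probesets, with 1 fit of all 8 arrays and Benjamini-Hochberg adjustment. Grin2a rose with the knockout in SNc and was the only member with an adjusted p under 0.05 in any of the 6 comparisons. In SNc KO against SNc WT 0.149% of all tested probesets passed, 0.0724% with a higher value in KO. In VTA KO against VTA WT limma called 0 of 32 members (0.00904% of all tested probesets), and 12 had an unadjusted p under 0.05, 11 of them higher in KO. In SNc the unadjusted count was 9, all higher in KO. These counts are of probesets, and all 3 probesets of Gabrb2 are among the 11 in VTA. With 1 value per gene, the unadjusted count was 10 of 30 genes in VTA and 9 of 30 in SNc. Higher values at this level were found for 4.82% of all tested probesets in SNc and 4.73% in VTA. The members counted are 28.1% of those tested in SNc and 37.5% in VTA, against 8.62% and 10.2% of all tested probesets. Glra3, which was tested only because of its KO groups, is among the higher members in both regions, and without it 8 of 31 remain in SNc and 10 of 31 in VTA. The median log2 difference of the members was 0.14 in SNc and 0.21 in VTA, against 0.014 and -0.023 over all tested probesets. Values were above 0 for 21 of 32 members in SNc (52.8% of all tested probesets) and 25 of 32 in VTA (45.7%).

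Between the regions no member passed the adjusted threshold. Limma called 0 members between SNc WT and VTA WT (0.439% of all tested probesets), 0 between SNc KO and VTA KO (0.149%), 0 over both genotypes together (1.56%) and 0 for the difference between the knockout effects of the 2 regions (0%). At an unadjusted p under 0.05 the counts were 8 members (25% of those tested, against 18.8% of all tested probesets), 5 (15.6% against 17.5%), 11 (34.4% against 26.8%) and 3 (9.38% against 9.89%). Split by direction, values higher in SNc at this level were found for 6 members between the WT groups (18.8% of those tested, against 8.59% of all tested probesets), 5 between the KO groups (15.6% against 9.73%) and 9 over both genotypes (28.1% against 13.7%). Lower values were found for 2, 0 and 2 members (6.25%, 0% and 6.25%, against 10.2%, 7.81% and 13.1% of all tested probesets). Values were above 0 for 21 of 32 members in SNc WT against VTA WT (51% of all tested probesets), 20 in SNc KO against VTA KO (54.8%) and 23 over both genotypes (53.7%), counts that fell to 18, 16 and 20 under quantile normalization. The study chose genes by a fold of at least 1.5, an unadjusted p of at most 0.05 and a signal of at least 60. With limma's p these thresholds held for 3 members between SNc WT and VTA WT (6.62% of all tested probesets), a count of 0 without the second SNc WT array, 1 without the first VTA WT array, 1 under quantile normalization and 6 under median subtraction. They held for 4 in SNc KO against SNc WT (3.6%), 5 in VTA KO against VTA WT (4.35%), all of them higher in KO (1.84% and 1.92% in that direction), or 3 and 4 without Glra3. Between SNc KO and VTA KO they held for 1 member (6.96%), and for 3 without either VTA KO array, 2 without the first SNc KO array and 2 under median subtraction. The members past them as deposited are Grin2a, Grin3a, Grik1, Gabrb2, Gabrg1, Gabrq, Gabrr1, Glra2 and Glra3, and their values on each array follow by receptor class.

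**Figure D1:**
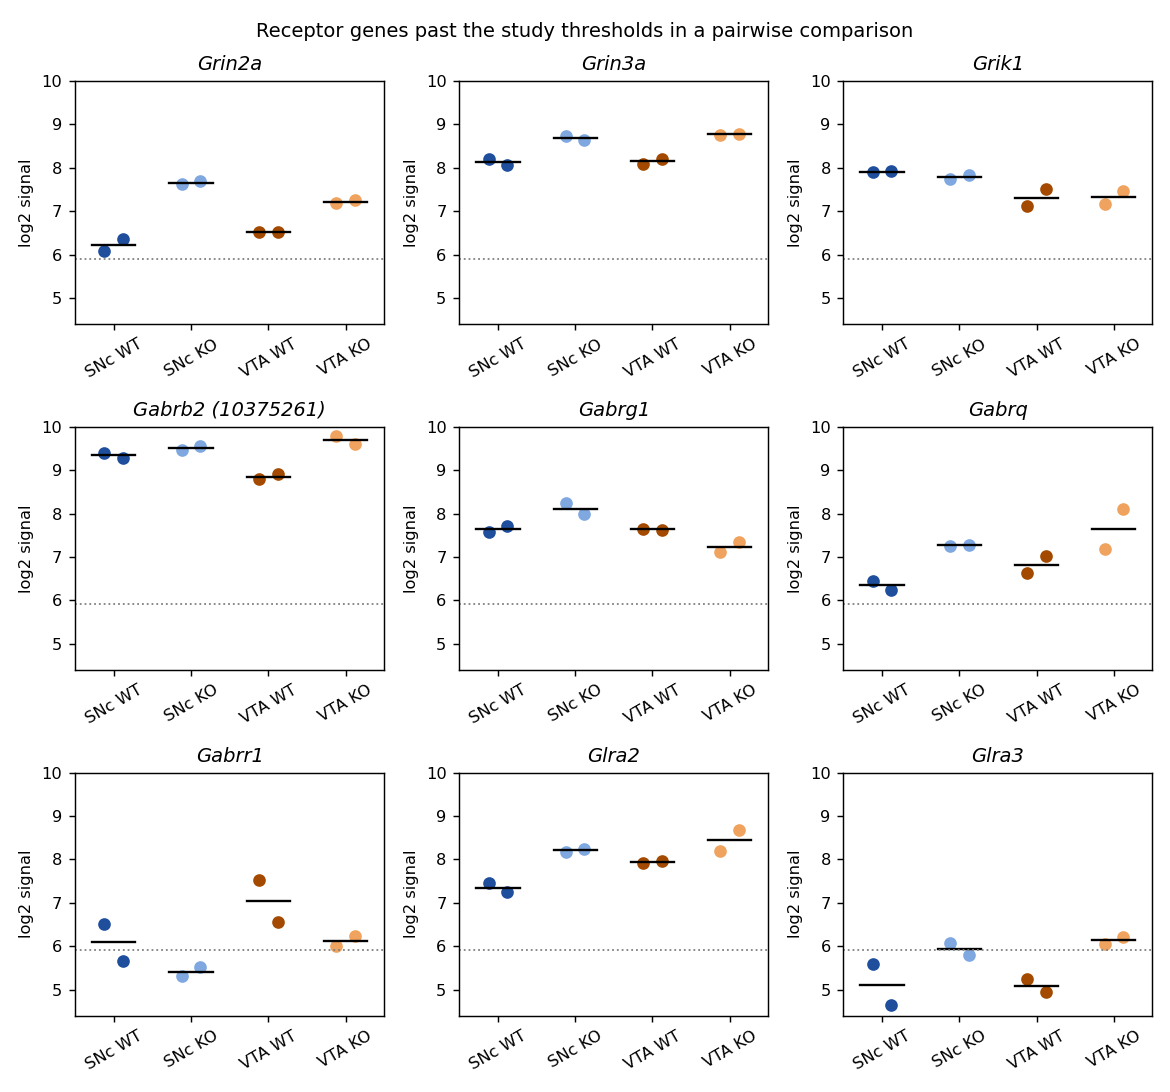
Log2 signal (y axis) of the 9 receptor genes past the thresholds of the study in a pairwise comparison, with 1 point per array and a bar at the mean of the 2 arrays of each group (x axis); the dotted line marks the signal minimum of 60. Grin2a and Glra2 are lowest in SNc WT, Grin3a is higher on all 4 KO arrays than on all 4 WT arrays, and the arrays of VTA KO for Gabrq and of SNc WT for Glra3 lie far apart.

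Among NMDA receptor subunits, Grin2a encodes GluN2A, the subunit that speeds NMDA currents and increases after birth in much of the brain. Its signal was 6.09 and 6.37 on the SNc WT arrays, 7.62 and 7.69 on SNc KO, 6.53 and 6.51 on VTA WT and 7.19 and 7.26 on VTA KO. The 4 KO arrays lay above the 4 WT arrays with no overlap, and the SNc held both the lowest and the highest values. Grin2a rose by 1.42 on the log2 scale in SNc KO against SNc WT, a 2.68-fold difference (SE 0.12, limma adjusted p = 0.0237). The adjusted p of this difference ranged from 0.0119 to 0.235 over the 18 alternative settings, and the call was lost without either SNc WT, either SNc KO or either VTA WT array, without the signal filter, with the replicate number as a block and with the SNc groups alone. The difference in VTA KO against VTA WT was 0.70 (SE 0.12, limma adjusted p = 0.19). The knockout difference was 0.72 larger in SNc than in VTA (SE 0.18, limma adjusted p = 0.37).

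Grin3a, which encodes GluN3A, a subunit that lowers calcium entry and is most abundant in young neurons, read 8.20 and 8.07 on SNc WT, 8.74 and 8.64 on SNc KO, 8.09 and 8.21 on VTA WT and 8.76 and 8.79 on VTA KO. The KO and WT arrays did not overlap in either region, whereas the WT arrays of SNc and VTA overlapped and the KO arrays lay close together. The difference was 0.56 in SNc KO (SE 0.11, limma adjusted p = 0.2) and 0.62 in VTA KO (SE 0.11, adjusted p = 0.19). Over both genotypes SNc differed from VTA by -0.05, with a 95% interval of -0.24 to 0.14.

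Grin2b, which encodes GluN2B, the main partner subunit of immature NMDA receptors, had the highest regional difference of its class between the WT groups and over both genotypes. In WT it was 0.49 higher in SNc (SE 0.13, limma adjusted p = 0.14) and in KO 0.33 higher (adjusted p = 0.26), while its knockout differences were -0.19 in SNc and -0.03 in VTA. Grin2c, Grin2d and Grin3b, whose subunits complete the class, had differences of -0.18 to 0.27 in the 4 pairwise comparisons, and none of them had an unadjusted p under 0.05. Of the 6 tested NMDA genes, 3 were above 0 in each knockout comparison, although under quantile normalization and median subtraction 4 were above 0 in VTA KO.

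AMPA receptor genes Gria1 to Gria4 were all tested, and none passed the adjusted threshold. All 4 had higher means in SNc than in VTA, in WT by 0.08 for Gria4 to 0.48 for Gria3 and in KO by 0.01 for Gria2 to 0.31 for Gria1, while 3 of 4 were above 0 in each comparison under quantile normalization. Gria3, which encodes GluA3, differed by 0.37 between SNc and VTA over both genotypes (SE 0.09, limma adjusted p = 0.084). Gria1, whose GluA1 subunit enters synapses during potentiation, had knockout differences of 0.35 in SNc (adjusted p = 0.56) and 0.33 in VTA (adjusted p = 0.5). Gria2 encodes the subunit whose edited form makes AMPA receptors impermeable to calcium, and its knockout differences were -0.14 in SNc (95% interval -0.37 to 0.09) and 0.06 in VTA (-0.17 to 0.29).

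Kainate receptors modulate transmitter release and excitability, and Grik1 encodes the GluK1 subunit. Its signal was 7.89 and 7.93 on SNc WT, 7.73 and 7.83 on SNc KO, 7.12 and 7.51 on VTA WT and 7.16 and 7.48 on VTA KO. All 4 SNc arrays lay above all 4 VTA arrays, and WT and KO differed little within a region. The SNc WT minus VTA WT difference was 0.60 (SE 0.17, limma adjusted p = 0.16), the SNc KO minus VTA KO difference 0.46 (adjusted p = 0.25), and that over both genotypes 0.53 (SE 0.12, adjusted p = 0.077). Its knockout difference was -0.13 in SNc (95% interval -0.54 to 0.27) and 0.00 in VTA (-0.40 to 0.41).

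Grik3, Grik4 and Grik5 were also above 0 between the regions in WT and in KO, whereas Grik2 differed by -0.03 in WT (limma adjusted p = 0.92) and 0.15 in KO (adjusted p = 0.54). Over both genotypes the class ran from 0.06 for Grik2 to 0.53 for Grik1 with a median of 0.32, all 5 above 0 (4 of 5 under quantile normalization), and 4 of 5 had an unadjusted p under 0.05 with a higher value in SNc, as 13.7% of all tested probesets did. Grik4, whose product is a high-affinity subunit, had the largest difference of its class between SNc KO and VTA KO, 0.52 (SE 0.14, limma adjusted p = 0.18). In the knockout comparisons the highest of the class were Grik2 in SNc, 0.40 (adjusted p = 0.45), and Grik3 in VTA, 0.40 (adjusted p = 0.32). Grid1, which encodes the delta receptor GluD1, a synaptic organiser, differed by 0.10 in SNc KO and 0.40 in VTA KO (adjusted p = 0.94 and 0.48).

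**Figure D2:**
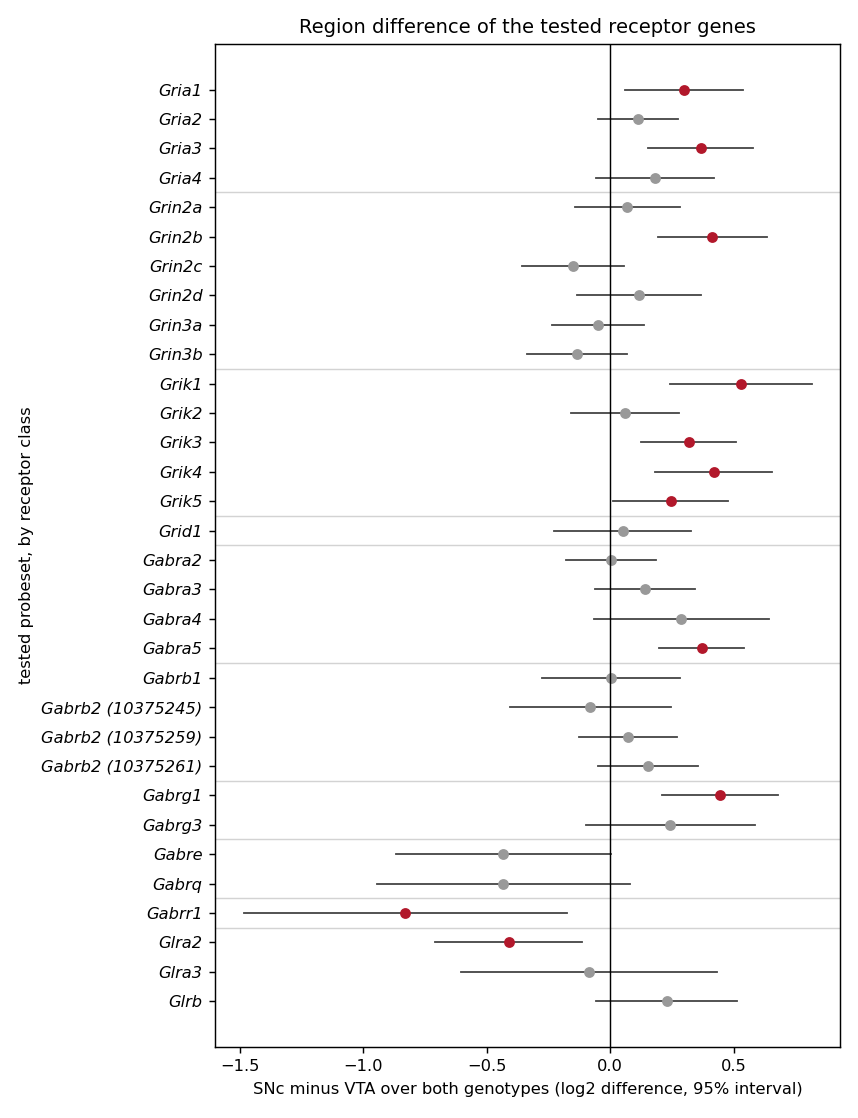
SNc minus VTA difference over both genotypes (x axis, log2, point with 95% interval) for each tested probeset (y axis, grouped by receptor class), red where the unadjusted p is under 0.05. Kainate and AMPA receptor genes lie at or above 0, with Grik1 at 0.53, and Gabre, Gabrq, Gabrr1 and Glra2 lie below 0, Gabrr1 lowest at -0.83.

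GABA-A receptors carry most fast inhibition in these neurons. Their alpha subunit genes differed little with genotype, from -0.12 to 0.10 in SNc KO and from -0.24 to 0.23 in VTA KO over Gabra2, Gabra3, Gabra4 and Gabra5, with no unadjusted p under 0.05. Gabra5, known for tonic and extrasynaptic receptors, was the alpha gene with the largest regional difference between WT groups, 0.50 in favour of SNc (SE 0.10, limma adjusted p = 0.1), and it differed by 0.37 over both genotypes (SE 0.07, adjusted p = 0.061). On the SNc arrays it read 7.96 to 8.04 and on the VTA arrays 7.48 to 7.79, with no overlap.

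Of the beta subunits, which contribute to the GABA binding site, Gabrb1 differed by -0.01 to 0.03 between regions and genotypes, with 95% intervals within -0.41 and 0.42. Gabrb2 was measured by 3 probesets that did not behave alike. The probeset with the largest difference read 9.39 and 9.29 on SNc WT, 9.48 and 9.55 on SNc KO, 8.80 and 8.91 on VTA WT and 9.80 and 9.60 on VTA KO. VTA WT was the lowest group on it, and VTA KO the highest. It differed by 0.84 in VTA KO against VTA WT (SE 0.12, limma adjusted p = 0.15) and the SNc difference was 0.17 (adjusted p = 0.78). The other probesets gave 0.52 and 0.31 in VTA KO (adjusted p = 0.43 and 0.44) and 0.58 and 0.24 in SNc KO (adjusted p = 0.46 and 0.67). All 3 were above 0 in both regions, and the mean of the 3 probesets gave 0.56 in VTA KO.

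Gabrg1 encodes the gamma1 subunit and had knockout differences of opposite sign in the regions. Its signal was 7.58 and 7.71 on SNc WT, 8.24 and 7.98 on SNc KO, 7.64 and 7.63 on VTA WT and 7.12 and 7.34 on VTA KO. The WT arrays of the regions overlapped, and those of the KO groups did not. The SNc KO minus VTA KO difference was 0.88, a 1.85-fold difference (SE 0.14, limma adjusted p = 0.11, and 0.0352 without the second VTA KO array), while the SNc WT minus VTA WT difference was 0.01 (95% interval -0.32 to 0.34). Its knockout difference was 0.46 in SNc (adjusted p = 0.42) and -0.41 in VTA (adjusted p = 0.38), and the difference of these differences was 0.88 (SE 0.20, limma adjusted p = 0.35). Gabrg3 differed by 0.05 in SNc KO and 0.14 in VTA KO.

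Gabrg1 lies on chromosome 5 beside Gabra2, in a cluster with Gabra4 and Gabrb1. Its neighbours had knockout differences of -0.12 to 0.10 in SNc and -0.24 to 0.07 in VTA, so the values of Gabrg1 stood outside the range of the cluster in both regions. On the X chromosome Gabre, Gabra3 and Gabrq form another cluster. There Gabrq and Gabre had higher means in VTA than in SNc in both genotypes (SNc minus VTA -0.48 and -0.30 in WT, -0.38 and -0.57 in KO), whereas Gabra3 between them differed by 0.26 and 0.02. Gabre reached the signal minimum only in VTA KO and so was tested only because of a group in which it was higher. The arrays of the regions overlapped for Gabre in WT and for Gabrq in KO. The regional differences of these X-linked genes had adjusted p values of 0.3 to 0.94.

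Gabrq encodes the theta subunit, known from monoaminergic nuclei. Its signal was 6.45 and 6.25 on SNc WT, 7.26 and 7.28 on SNc KO, 6.62 and 7.03 on VTA WT and 7.19 and 8.11 on VTA KO. The KO arrays lay above the WT arrays in both regions, but the VTA KO arrays were 0.92 apart. The difference was 0.92 in SNc KO (SE 0.30, limma adjusted p = 0.46) and 0.83 in VTA KO (SE 0.30, adjusted p = 0.43). Without the first VTA KO array the VTA value was 1.29, and without the second it was 0.37.

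Gabrr1, which encodes the rho1 subunit of bicuculline-insensitive receptors best known from retina, had its lowest mean in SNc KO and its highest in VTA WT. It read 6.52 and 5.67 on SNc WT, 5.31 and 5.52 on SNc KO, 7.53 and 6.55 on VTA WT and 6.01 and 6.24 on VTA KO. The SNc WT minus VTA WT difference was -0.95 (SE 0.38, limma adjusted p = 0.26), -0.46 without the first VTA WT array, -1.43 without the second and -0.52 without the second SNc WT array. The knockout differences were -0.68 in SNc and -0.91 in VTA, the lowest of all tested members in each region, with adjusted p values of 0.72 and 0.49. The neighbouring gene Gabrr2 stayed under the signal minimum.

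Glycine receptors in newborn neurons contain the alpha2 subunit, encoded by Glra2. Its signal was 7.45 and 7.26 on SNc WT, 8.17 and 8.25 on SNc KO, 7.92 and 7.97 on VTA WT and 8.20 and 8.68 on VTA KO. SNc WT lay below the other 3 groups with no overlap. The knockout difference was 0.86 in SNc (SE 0.17, limma adjusted p = 0.22) and 0.49 in VTA (adjusted p = 0.41), and SNc WT minus VTA WT was -0.59 (adjusted p = 0.17).

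Glra3, which encodes the alpha3 subunit, read 5.58 and 4.65 on SNc WT, 6.08 and 5.80 on SNc KO, 5.25 and 4.94 on VTA WT and 6.04 and 6.22 on VTA KO. Both WT groups were under the signal minimum of 5.91 and the KO arrays lay above the WT arrays of their region, so Glra3 was tested only because of the KO groups. The difference was 0.82 in SNc KO (SE 0.30, limma adjusted p = 0.52) and 1.04 in VTA KO (SE 0.30, adjusted p = 0.33). In SNc it was 1.29 without the first SNc WT array and 0.36 without the second. Glrb encodes the beta subunit that anchors glycine receptors to gephyrin, and it differed by -0.07 in SNc KO and 0.21 in VTA KO, with 95% intervals of -0.47 to 0.34 and -0.19 to 0.61.

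**Figure D3:**
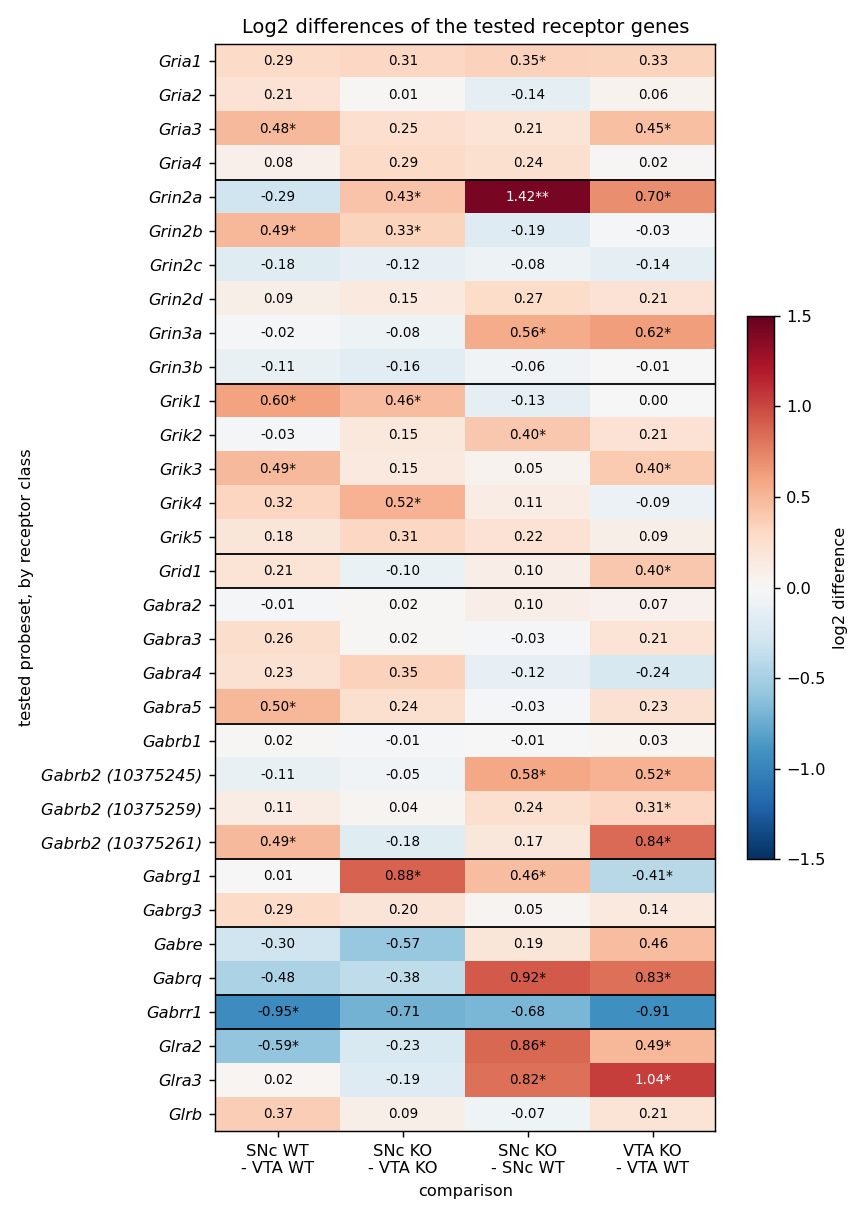
Log2 difference (colour and printed value) of each tested probeset (rows, grouped by receptor class) in the 4 pairwise comparisons (columns); 1 asterisk marks an unadjusted p under 0.05 and 2 asterisks an adjusted p under 0.05. The column of VTA KO minus VTA WT holds the most positive values, 25 of 32, and Grin2a in SNc KO against SNc WT, 1.42, is the only value with 2 asterisks.

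The knockout differences of SNc and VTA share no array, so their signs can be set side by side. Their p-values are not separate, because the fit gave each probeset 1 estimate of the spread from all 8 arrays. A small spread thus lowers the p in both regions together. Of the 32 tested members 19 were above 0 in both regions (59.4%, against 23% of all tested probesets). Another 5 were below 0 in both (15.6% against 24.5%) and 8 were of opposite sign (25% against 52.5%). Without the signal filter the count above 0 in both was 23 of 40 (57.5% against 23.1%), and it was 17 to 20 of 32 when any array was left out. All 3 probesets of Gabrb2 are among the 19, and with 1 value per gene the count was 17 of 30 (56.7% against 23.2%). An unadjusted p under 0.05 with a higher value in KO in both regions was found for 6 members, 18.8% against 0.778% of all tested probesets. They were Grin2a, Grin3a, Gabrq, Glra2, Glra3 and 1 probeset of Gabrb2, the one with 0.58 and 0.52. Glra3 passed the signal filter only through its KO groups, and without it the count was 5 of 31 (16.1%). Without the signal filter it was 6 of 40 (15% against 0.521%), and with the filter on the mean of all arrays, which leaves Glra3 out, 5 of 29 (17.2% against 0.807%). No member was lower at this level in both (0.552% of all), and Gabrg1 was the only one past it with opposite signs (0.791% of all).

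**Figure D4:**
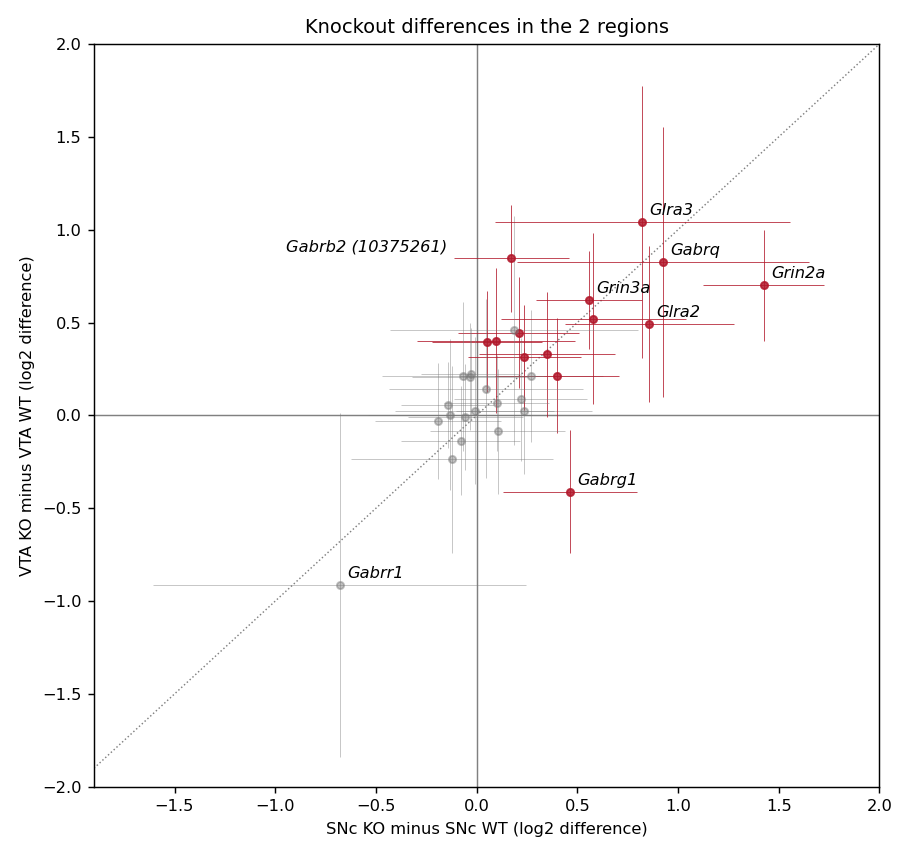
Knockout difference in SNc (x axis) against that in VTA (y axis), both as log2 differences with 95% intervals, for the 32 tested probesets; red points have an unadjusted p under 0.05 in at least 1 region and the dotted line marks equal values. Points crowd the upper right quadrant, Grin2a lies farthest right at 1.42, and Gabrg1 is the only red point below 0 in VTA.

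The promoters of 3 of these genes are shown because 2 of them, Glra3 and Gabrq, had higher values in KO in both regions and Gabrg1 had opposite signs. Grin2a, Grin3a, Glra2 and Gabrb2 were also higher in KO in both regions. Promoters were found for 29 of the 38 member genes, and Grin2a and Grin3a were not among them. The sequences are RefSeq's for GRCm38.p6, 5′ to 3′ on the strand of the gene, from 250 to 16 bases before the listed start, and capitals mark CG dinucleotides. Glra3 lies at chr8:55940168-55940402 on the plus strand, Gabrq at chrX:72824928-72825162 on the plus strand and Gabrg1 at chr5:70842633-70842867 on the minus strand.
Glra3: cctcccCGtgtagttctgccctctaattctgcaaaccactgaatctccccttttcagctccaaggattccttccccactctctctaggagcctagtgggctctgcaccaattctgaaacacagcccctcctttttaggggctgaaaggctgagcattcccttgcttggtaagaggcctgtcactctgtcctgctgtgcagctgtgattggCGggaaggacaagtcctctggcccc
Gabrq: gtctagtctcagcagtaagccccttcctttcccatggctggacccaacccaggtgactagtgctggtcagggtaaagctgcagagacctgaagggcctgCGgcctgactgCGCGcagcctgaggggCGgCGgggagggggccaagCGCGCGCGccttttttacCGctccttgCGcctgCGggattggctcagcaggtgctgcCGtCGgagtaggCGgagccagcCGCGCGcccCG
Gabrg1: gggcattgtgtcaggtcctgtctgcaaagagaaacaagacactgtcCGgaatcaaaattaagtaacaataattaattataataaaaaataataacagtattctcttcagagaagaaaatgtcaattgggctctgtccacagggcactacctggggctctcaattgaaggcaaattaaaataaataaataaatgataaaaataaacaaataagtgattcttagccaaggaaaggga

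The windows held 2 CG dinucleotides in Glra3, 19 in Gabrq and 1 in Gabrg1, with GC contents of 54.9%, 67.7% and 33.6%. Over the 32851 promoter windows of the same length in the table, the median was 5 CG dinucleotides (quartiles 2 and 14) and 51.9% GC. Gabrq therefore lay above the upper quartile, and Gabrg1 below the lower. TAATCC, the core bound by Pitx and other bicoid-type homeodomain factors, was searched on both strands, and 5.98% of all windows contained it. AAAGGTCA, the element bound by Nr4a2 as a monomer, was in 1.26% of them. Neither was in these 3 windows, which says only that these letters are not there.

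Partner proteins of the receptors were read from lists of genes. Cerebellins are secreted proteins that link delta receptors to presynaptic neurexins. Cbln1 read 8.89 and 8.62 on SNc WT, 10.31 and 10.28 on SNc KO, 9.23 and 8.93 on VTA WT and 9.87 and 9.72 on VTA KO, so the KO arrays lay above the WT arrays in both regions. It rose by 1.54 in SNc KO (SE 0.15, limma adjusted p = 0.0375, and 0.149% of all tested probesets were called), and in VTA KO the difference was 0.72 (adjusted p = 0.23). The SNc call was lost under 12 of 18 alternative settings, without any 1 of the 8 arrays, without the signal filter, under quantile normalization, with the replicate number as a block and with the SNc groups alone, with a difference of 1.40 to 1.67 and an adjusted p of 0.0178 to 0.235 over all settings. Cbln4 read 7.81 and 7.54 on SNc WT and 8.73 and 8.88 on VTA WT and was lower in SNc (WT difference -1.13, SE 0.13, limma adjusted p = 0.0286, and 0.439% of all tested probesets were called, 0.357% lower in SNc). This call was lost under 9 of 18 settings, without either array of SNc WT, SNc KO or VTA WT, without the signal filter, with the block and with the WT groups alone (adjusted p 0.0105 to 0.181 over all settings). Over both genotypes Cbln4 was lower in SNc as well (difference -0.73, SE 0.09, limma adjusted p = 0.0321, and 1.56% of all tested probesets were called, 0.968% lower in SNc), a call lost under 8 of 17 settings, the same arrays, filter and block. Of the 4 cerebellin genes, 1 passed the adjusted threshold in each of these 3 comparisons and none in the other 3, and Cbln2 differed by 0.75 in SNc KO (adjusted p = 0.23).

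**Figure D5:**
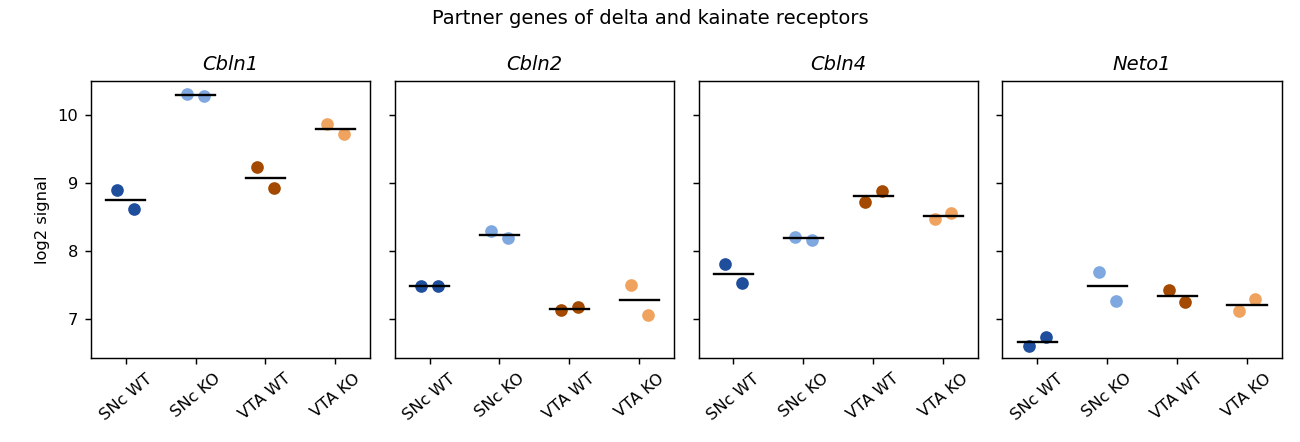
Log2 signal (y axis) of Cbln1, Cbln2 and Cbln4, ligands of delta receptors, and of Neto1, an auxiliary subunit of kainate receptors, with 1 point per array and a bar at the mean of the 2 arrays of each group (x axis). Cbln1 is higher on all KO than on all WT arrays, Cbln4 is lowest in SNc WT, and Neto1 is lowest in SNc WT.

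Neto1, an auxiliary kainate receptor subunit, had a knockout difference of 0.81 in SNc (SE 0.17, limma adjusted p = 0.23) and a regional difference of -0.67 in WT (adjusted p = 0.14), while Neto2 differed by -0.05 in SNc KO. Of 16 AMPA receptor auxiliary genes none passed the adjusted threshold in any comparison, and those past the thresholds of the study between groups were Cacng7, 0.76 between SNc WT and VTA WT and 0.86 between SNc KO and VTA KO (adjusted p = 0.19 in each), and Cacng3, 0.61 in SNc KO (adjusted p = 0.52). Among 24 tested glutamate receptor scaffold genes and 20 tested genes of GABA-A and glycine receptor anchoring and trafficking, none passed it either, and only Iqsec3, whose product is found at inhibitory synapses, passed the thresholds of the study, at 0.60 in SNc KO (adjusted p = 0.36) and 0.75 between SNc KO and VTA KO (adjusted p = 0.15). The thresholds of the study held for 6.62% of all tested probesets between the WT groups, 6.96% between the KO groups and 3.6% in SNc KO. The median difference of the scaffolds was 0.05 and that of the inhibitory partners 0.09 in SNc KO, against 0.014 over all tested probesets. The chloride transporter genes Slc12a5, which lowers intracellular chloride, and Slc12a2, which raises it, differed by 0.27 and 0.28 in SNc KO and by 0.26 and -0.23 in VTA KO, none with an unadjusted p under 0.05.

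Levels of transmitter marker lists differed between the groups. No gene of the GABAergic, glutamatergic and dopaminergic lists passed the adjusted threshold in either knockout comparison. Between SNc and VTA over both genotypes, 1 of the 5 tested GABAergic genes passed it, higher in SNc (0.597% of all tested probesets). None did in WT or KO alone. Gad1 had the largest regional difference of that list, 0.996 over both genotypes, 0.95 in WT and 1.04 in KO. In each of these comparisons 3 of the 5 were above 0 and 2 below. The summed linear signal of the 7 measured GABAergic markers was 1010 to 1081 on SNc WT arrays, 1431 to 1626 on SNc KO, 1013 to 1032 on VTA WT and 1313 to 1506 on VTA KO, with Dlx2 and Gata3 under 60 in every group. That of 5 glutamatergic markers was 588 to 689, 1174 to 1220, 1004 to 1143 and 1154 to 1297 in the same order, with Slc17a7, Pou4f1 and Tbr1 under 60 throughout, and that of 8 dopaminergic markers was 7779 to 8396, 5626 to 6266, 6814 to 6867 and 5539 to 5708. The glutamatergic sum thus had its lowest values in SNc WT, as Grin2a and Glra2 did. The ciliated cell and oligodendrocyte lineage sums were lowest there as well. The dopaminergic sum was lower in both KO groups, with 7 of 8 genes below 0 in SNc KO (median -0.22) and 6 in VTA KO (median -0.14). Foxa2 differed by 0.16 in SNc KO and En1 by 0.14 in VTA KO. At an unadjusted p under 0.05, 3 genes were lower in SNc KO and 2 in VTA KO, against 3.8% and 5.51% of all tested probesets. Of the 2 tested glutamatergic genes, Slc17a6 differed by 1.08 in SNc KO and 0.24 in VTA KO, and Slc17a8 by 0.63 and -0.11. Both passed the thresholds of the study in SNc KO (3.6% of all tested probesets), and neither did in VTA KO (4.35%). In SNc WT against VTA WT they differed by -0.87 and -0.57. Slc17a8 was under the signal minimum in SNc WT and VTA KO, so in SNc it passed only through the KO group. Slc32a1, the vesicular GABA transporter, differed by 0.94 in SNc KO and 0.73 in VTA KO (limma adjusted p = 0.073 and 0.18), and Slc6a3, the dopamine transporter, by -0.98 and -0.90 (adjusted p = 0.077 and 0.18). Non-neuronal markers differed as well. The pericyte sum was 703 to 800 on SNc WT, 2116 to 2373 on SNc KO, 2132 to 2892 on VTA WT and 513 to 2767 on VTA KO. The sum of 9 ciliated cell markers was 922 to 994 on SNc WT, 1022 to 1042 on SNc KO and 1651 to 3868 on VTA arrays. Limma called 2 of these 9 lower in SNc between the WT groups, 2 between the KO groups and 4 over both genotypes (0.357%, 0.109% and 0.968% of all tested probesets). The part of any of these cell types in the receptor differences was not tested.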

How the data were processed

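Values were the log2 probeset summaries that the authors deposited, computed by RMA from Affymetrix Mouse Gene 1.0 ST arrays after linear amplification of total RNA. The scale was read from the values, and the LPE test named in the methods was not run here. The samples were grouped by their titles (2 arrays in each of 4 groups, 8 in all). Symbols came from the platform annotation, in which 21789 of 35512 probesets had 1 symbol, 1621 several and 12102 none. Identifiers of all 38 member genes were found in the RefSeq table of GRCm38.p6, and promoters of 29. Probesets that reached 60 in linear signal as the mean of any group were tested in R 4.3.3 with limma 3.58.1 (lmFit on the 4 group means, eBayes, Benjamini-Hochberg over 22112 probesets), and the script was tested on simulated data. Residual degrees of freedom were 4. Fold differences are of RMA values and understate changes of dim probes, and levels of different probesets were not compared. Values on every array are given for members with an adjusted p under 0.05 in any comparison or past the thresholds of the study in a pairwise one. Other members are given by class, and named where they are the highest or lowest of it. The probeset with the highest mean stood for partner genes with several probesets. The members and gene lists were chosen with earlier results of these data known. The values of the other marker lists (astrocyte, oligodendrocyte, endothelial, microglial) are given under other observations. Alternatives were other filters, normalizations and variance models, a replicate block, 1 value per gene and leaving out each array. Settings applied to the counts of members above 0 in both regions and past the thresholds of the study, to the cerebellin calls and to the counts with and without Glra3 were added after seeing the data.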

Additional observations from a re-analysis of the deposited data

Results flagged for a closer look

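The knockout effects of the regions, or the regional differences of the genotypes, had opposite directions on every array for 4 members. The share of all tested probesets with such a pattern was not counted, so no excess can be read from this number. None of the 4 passed the adjusted threshold. By another rule, an unadjusted p under 0.05 for the difference between the effects, 3 members passed (9.38% of those tested, against 9.89% of all tested probesets). For Gabrg1 the knockout effect in SNc minus that in VTA was 0.88 (limma adjusted p = 0.35), with the SNc KO arrays above their controls and the VTA KO arrays below theirs. For Grin2a it was 0.72 (limma adjusted p = 0.37), and SNc was below VTA in WT but above it in KO. For the Gabrb2 probeset with the largest knockout difference it was -0.67 (limma adjusted p = 0.37), with SNc above VTA in WT and below it in KO, and the mean of its 3 probesets gave -0.23. For Gria2, not among those 3, it was -0.20 (limma adjusted p = 0.67), with both SNc KO arrays below and both VTA KO arrays above their controls.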

How the results depend on the processing

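Of 300 recomputed differences of named members 290 kept their direction and their side of the threshold, 9 lost a call, 1 gained a call and 0 changed direction; 9 of those 10 concern Grin2a in SNc KO against SNc WT. Counts of members with an adjusted p under 0.05 changed as follows. In SNc KO against SNc WT (1 member) the count was 0 without the signal filter, 0 with the replicate number as a block, 0 with the SNc groups alone, 4 with the thresholds of the study and 0 to 1 when an array was left out. The thresholds of the study gave 3 members between SNc WT and VTA WT, 5 in VTA KO and 1 between SNc KO and VTA KO. They gave 1 over both genotypes (3.12% of those tested, against 4.77% of all tested probesets) and 3 for the difference of knockout effects (9.38% against 6.74%). Array weights gave 3 between SNc WT and VTA WT (Gabra5, Gabrb2, Grin2b), and subtraction of array medians gave 5 over both genotypes (Gabra5, Gabrg1, Gria3, Grik3, Grik4). With an array left out the counts were 0 to 1 between SNc KO and VTA KO (Gabrg1 without the second VTA KO array), 0 to 5 over both genotypes (Gabra4, Gabra5, Gabrg1, Grik1 and Grin2b without the same array) and 0 in the other comparisons. The cause of these changes was not tested. Median subtraction moved the median of all probesets from 0.0080 to 0.12 between SNc WT and VTA WT, from 0.035 to 0.11 between SNc KO and VTA KO and from 0.025 to 0.12 over both genotypes, and 24, 22 and 26 of 32 members were then above 0, against 21, 20 and 23 as deposited and 18, 16 and 20 after quantile normalization. The block changed no other count, and arrays with the same number shared only the number (correlations of their deviations 0.0058 to 0.098). Members past the thresholds of the study numbered 0 without the second SNc WT array and 6 after median subtraction between SNc WT and VTA WT, 3 to 5 in SNc KO, 4 to 7 in VTA KO, and 1 to 3 between SNc KO and VTA KO over these settings. With 2 arrays per group small differences cannot be resolved, and the standard errors were largest for Gabrr1, Glra3, Gabrq and Gabre (0.38, 0.30, 0.30 and 0.26 in pairwise comparisons).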

Other observations

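The Gria2 and Glrb genes are neighbours on chromosome 3, and between SNc WT and VTA WT both were higher in SNc WT, by 0.21 and 0.37 (limma adjusted p = 0.29 and 0.3). On chromosome 7, Gabra5 and Gabrg3 are neighbours and differed in the same comparison by 0.50 and 0.29. The summed linear signal of 9 astrocyte and radial glia markers was 2471 to 2554 on SNc WT, 2665 to 2682 on SNc KO, 3603 to 3885 on VTA WT and 2000 to 2908 on VTA KO. Gfap and Aldh1l1 were under 60 in every group. Of the 7 tested, 6 were below 0 in VTA KO against VTA WT. Limma called 1 of them over both genotypes, lower in SNc (0.968% of all tested probesets). In the same order of groups, the sum of 8 oligodendrocyte lineage markers was 465 to 480, 543 to 563, 619 to 639 and 495 to 581. That of 6 endothelial markers was 245 to 251, 237 to 277, 284 to 298 and 261 to 298. That of 8 microglial and macrophage markers was 487 to 539, 425 to 474, 451 to 460 and 430 to 474. Of the 3 tested, limma called 1 in SNc KO, lower in KO (0.0769% of all tested probesets), and 1 between the WT groups, higher in SNc (0.0814%). Mrc1 had the largest difference of the list in both, -1.40 and 1.26, and reached the signal minimum only in SNc WT.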
